A study of Mus musculus with 2 samples.

Results

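The genes described here encode the enzymes that build and sulfate the sugar chains of glycoproteins, glycolipids and proteoglycans. They were chosen by name: every non-control probe whose gene name in either scanner file begins with St3gal, St6gal, St8sia, B3gnt, B4galt, B3galt, Galnt, Mgat, Fut, Gcnt, Chst, Chsy, Ext or Ndst followed by a digit. The rule found 151 of 41174 probes, which belong to 89 of 27781 genes on the array. Of these 89 genes, 75 had a probe well above background in at least 1 cell population on both arrays and were tested, and 14 were not. All 151 probes were named in the reference table, where some symbols differ from those in the files: B3gnt6 of the files is now B4gat1, B3gnt1 is B3gnt2, Galnt15 is Galntl5 and 1 Mgat4a probe is 4930594C11Rik. Fut4-ps1 is a pseudogene of Fut4.

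The compared groups were splenic CD8+CD122+ T cells and CD8+CD122- T cells, both obtained by sorting from C57BL/6 mice. CD122 is a receptor chain for interleukins, and the series calls the CD8+CD122+ cells regulatory. Both populations share strain, organ and the CD8 gate, and the labels mention no treatment or altered allele. The age, sex and number of the mice, and any pooling, are not given in the sources used here. Their messenger RNA was amplified and competed for the same spots on 2 two-colour arrays. On array 1 the CD8+CD122+ sample was labelled with Cy5 and the CD8+CD122- sample with Cy3. Array 2, called the second trial in the labels, had the dyes exchanged. The labels do not say whether the second trial used other mice. The p-values thus rest only on the spread between these 2 arrays, pooled in part across genes. That spread may be technical, and it includes any dye effect of a gene because no dye term was fitted.

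Mucin-type O-glycans start when a polypeptide GalNAc transferase adds a sugar to serine or threonine, and N-glycans are branched by the Mgat enzymes after transfer to asparagine. Galactosyl, GlcNAc, fucosyl and sialyl transferases then extend and cap both kinds of chain, and on leukocytes some of the capped chains serve as selectin ligands. Glycosaminoglycans are long sulfated chains: Chsy enzymes polymerise chondroitin, Ext enzymes polymerise heparan sulfate, and Ndst and Chst enzymes modify or sulfate them.

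Chsy1 and St3gal6 were higher and Ext1 was lower in CD8+CD122+ cells by at least 2-fold on both arrays. Promoters are shown for the higher pair, the members furthest above 0. The RefSeq promoter table of GRCm38.p6 held 1 transcription start for Chsy1 and a pair of starts for St3gal6. Each sequence is the 250 bases before the start, on the strand of the gene, and capitals mark GC boxes (GGGCGG or its reverse complement CCGCCC). Chsy1 lies on the plus strand at chr7:66109242-66109491, the first St3gal6 promoter on the minus strand at chr16:58524254-58524503 and the second on the minus strand at chr16:58523427-58523676.
Chsy1: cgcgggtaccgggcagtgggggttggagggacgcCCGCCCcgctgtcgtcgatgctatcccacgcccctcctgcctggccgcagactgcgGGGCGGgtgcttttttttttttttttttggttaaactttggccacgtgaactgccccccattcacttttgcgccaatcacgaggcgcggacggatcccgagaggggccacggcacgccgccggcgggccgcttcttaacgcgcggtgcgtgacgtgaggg
St3gal6 upstream start: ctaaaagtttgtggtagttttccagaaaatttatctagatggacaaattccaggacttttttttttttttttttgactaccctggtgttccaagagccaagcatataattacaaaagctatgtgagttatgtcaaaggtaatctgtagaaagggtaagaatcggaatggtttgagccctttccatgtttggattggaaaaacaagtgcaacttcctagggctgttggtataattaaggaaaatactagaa
St3gal6 downstream start: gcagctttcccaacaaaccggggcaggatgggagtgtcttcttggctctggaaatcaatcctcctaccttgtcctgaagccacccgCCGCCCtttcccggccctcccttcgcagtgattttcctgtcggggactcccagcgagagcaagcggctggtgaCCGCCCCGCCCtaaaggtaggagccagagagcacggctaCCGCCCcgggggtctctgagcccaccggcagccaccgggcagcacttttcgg

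The Chsy1 promoter held 2 GC boxes, the upstream St3gal6 promoter 0 and the downstream one 4, an overlapping pair among them. A GC box stood in 32.7% of all 32851 promoters of the table at the same length. The Chsy1 promoter and the upstream St3gal6 promoter each held 1 CCAAT box (CCAAT, either strand), which 33.9% of all promoters held. None of the 3 windows held the T-box letters AGGTGTGA (1.12% of all promoters), the AP-1 letters TGACTCA (4.46%) or TATAAA (12.4%) on either strand. Guanine and cytosine made up 65.6% of the Chsy1 promoter, 34.8% of the upstream St3gal6 promoter and 64.4% of the downstream one, against a median of 52.4% over all promoters. CG dinucleotides numbered 30, 1 and 16 in these 3 windows, with a median of 6 over all promoters. These matches describe letters only and not binding, and the arrays do not tell which St3gal6 start was used.

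The sort was checked first. Il2rb, which encodes CD122, had normalised levels of 8236 in CD8+CD122+ cells and 1355 in CD8+CD122- cells on array 1, and 4855 (CD8+CD122+) and 956.0 (CD8+CD122-) on array 2. Its log2 ratio was 2.60 on array 1 and 2.34 on array 2. Cd8a, the alpha chain of the CD8 gate, had log2 ratios of -0.31 and -0.91, and Cd8b1 of -0.48 and -0.86. Levels are linear intensities after background correction and normalisation, and include an offset of 50 units. All ratios here divide CD8+CD122+ by CD8+CD122-, whereas the deposited value table of the series runs the opposite way. The share of non-control spots well above background was 76.4% for CD8+CD122+ cells and 69.5% for CD8+CD122- cells on array 1. On array 2 it was 80.2% for CD8+CD122+ cells and 83.4% for CD8+CD122- cells.

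Probes for markers of other cells were measured as well, and their part in the results below was not tested. Of 9 B cell markers tested, 0 differed by at least 1.5-fold in one direction on both arrays. Their summed level was 5674 in CD8+CD122+ cells and 5642 in CD8+CD122- cells on array 1, and 3453 (CD8+CD122+) and 4891 (CD8+CD122-) on array 2. The CD4 T cell list had 2 of 3 markers tested and the erythroid list 3 of 5, with 0 past that size in either. Each of 3 other lists had 1 marker past it, higher in CD8+CD122+ cells. These were the NK cell gene Klra8 (1.23 and 0.72), the myeloid gene Cebpb (0.59 and 1.26) and the dendritic cell gene Zbtb46 (1.44 and 1.29), as log2 ratios on arrays 1 and 2. Summed NK cell markers (5 of 6 tested) stood at 6714 in CD8+CD122+ cells and 4508 in CD8+CD122- cells on array 1, and at 4536 (CD8+CD122+) and 3389 (CD8+CD122-) on array 2. Summed myeloid markers (6 of 9 tested) stood at 1635 in CD8+CD122+ cells and 1280 in CD8+CD122- cells on array 1, and at 2110 (CD8+CD122+) and 1391 (CD8+CD122-) on array 2. Summed dendritic cell markers (5 of 6 tested) stood at 1226 (CD8+CD122+) and 913.7 (CD8+CD122-) on array 1, and at 1215 (CD8+CD122+) and 961.8 (CD8+CD122-) on array 2. Ncr1, a defining NK cell gene, was above background on both arrays in neither population. In bulk RNA such as this, fewer cells of a type and less RNA per cell cannot be told apart. Nor does it tell whether the sorted T cells or other cells expressed a listed gene.

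Of the 75 members tested, limma called 0 at an adjusted p under 0.05, as it called 0% of 21964 genes, and the smallest adjusted p among members was 0.312. Without adjustment, 10 members (7 higher and 3 lower) and 1405 of all genes (631 higher and 774 lower) had a limma p under 0.05. Galnt14, measured well above background in CD8+CD122+ cells only, is among these 10, and 9 members (6 higher) are left without it. By size, CD8+CD122+ cells had 2 members higher by 2-fold or more on each array, where 0.31% of all genes were. They had 1 member lower by 2-fold or more on each array, where 0.105% of all genes were. With median centring in place of loess this split was 2 higher and 0 lower. At 1.5-fold on both arrays the counts stayed at 2 higher and 1 lower, with 0.742% and 0.369% of all genes past that size. On array 2 alone, without array 1, 8 members (10.7%) were at least 1.5-fold lower, where 3.67% of all genes were, and 2 at least 2-fold lower, where 0.82% of all genes were. The median log2 ratio of the members was 0.014, against 0.007 over all genes tested. The ratio was within 0.25 of 0 on both arrays for 49 of 75 members (65.3%) and for 72.7% of all genes. Signs were opposite on the arrays for 39 members (52.0%) and for 46.8% of all genes.

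**Figure D1:**
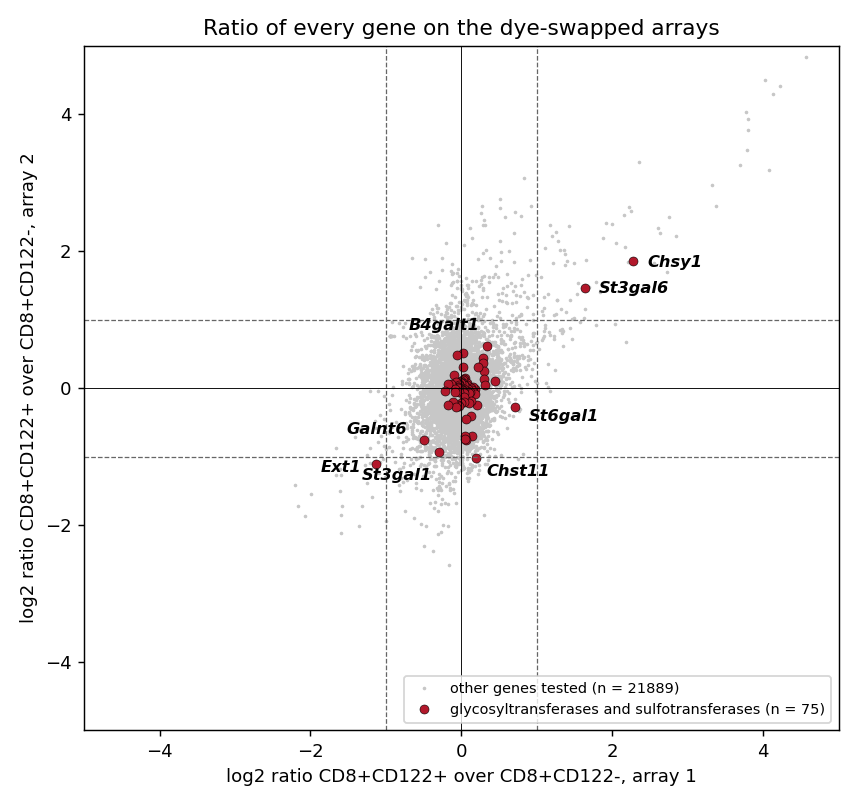
Log2 ratio of CD8+CD122+ over CD8+CD122- on array 1 (x axis) and array 2 (y axis), with 1 point per gene, red for the 75 tested members and grey for other genes, and dashed lines at 2-fold. Chsy1 (2.27 and 1.85) and St3gal6 (1.63 and 1.47) lie beyond both lines at the upper right and Ext1 (-1.14 and -1.11) at the lower left.

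Among the enzymes of glycosaminoglycan chains, the largest difference of any member was in Chsy1, a chondroitin synthase. Its normalised level was 2318 in CD8+CD122+ cells and 480.3 in CD8+CD122- cells on array 1, and 1780 (CD8+CD122+) and 493.6 (CD8+CD122-) on array 2. Both CD8+CD122+ levels lay above both CD8+CD122- levels. The log2 ratio was 2.06 ± 0.30 (SD, n = 2 arrays), 4.17-fold higher, with a limma adjusted p of 0.386 and rank 27 from the highest of 21964 genes. Chsy1 rests on 1 probe, which the file of array 1 lists under a design identifier and the file of array 2 as Chsy1.

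Ext1 encodes a subunit of the heparan sulfate polymerase. It had a normalised level of 198.0 in CD8+CD122+ cells and 435.1 in CD8+CD122- cells on array 1, and of 254.5 (CD8+CD122+) and 550.6 (CD8+CD122-) on array 2. Both CD8+CD122+ levels were below both CD8+CD122- levels. Its log2 ratio was -1.12 ± 0.02 (SD, n = 2 arrays), 2.18-fold lower, with a limma adjusted p of 0.312 and rank 33 from the lowest. This probe carries a clone name in the file of array 1 and Ext1 in that of array 2. A second kept probe, named Ext1 in both files, had ratios of -0.47 and -0.31, and the mean of both probes was -0.76. With that mean, and with median centring in place of loess, where the ratio was -0.90 on array 1 and -1.45 on array 2, Ext1 no longer passed 2-fold on both arrays.

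Ext2, the partner subunit of Ext1, had log2 ratios of -0.03 and 0.05 on arrays 1 and 2. Ndst2, which removes acetyl groups from heparan sulfate and sulfates it, had levels of 121.2 in CD8+CD122+ cells and 136.5 in CD8+CD122- cells on array 1, and 153.4 (CD8+CD122+) and 182.1 (CD8+CD122-) on array 2. Its ratios were -0.17 and -0.25 (limma adjusted p = 0.777). The brightest probe of Ndst1, an enzyme of the same kind, gave 0.16 and 0.01 (limma adjusted p = 0.924), and the other kept probes gave 0.01 and 0.02, and -0.17 and -0.44. Ndst3, B3galt6 and B4galt7, of which the last 2 add galactoses to the linker that joins the chain to its protein, had mean ratios between -0.14 and 0.06. Ndst4 was not tested.

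**Figure D2:**
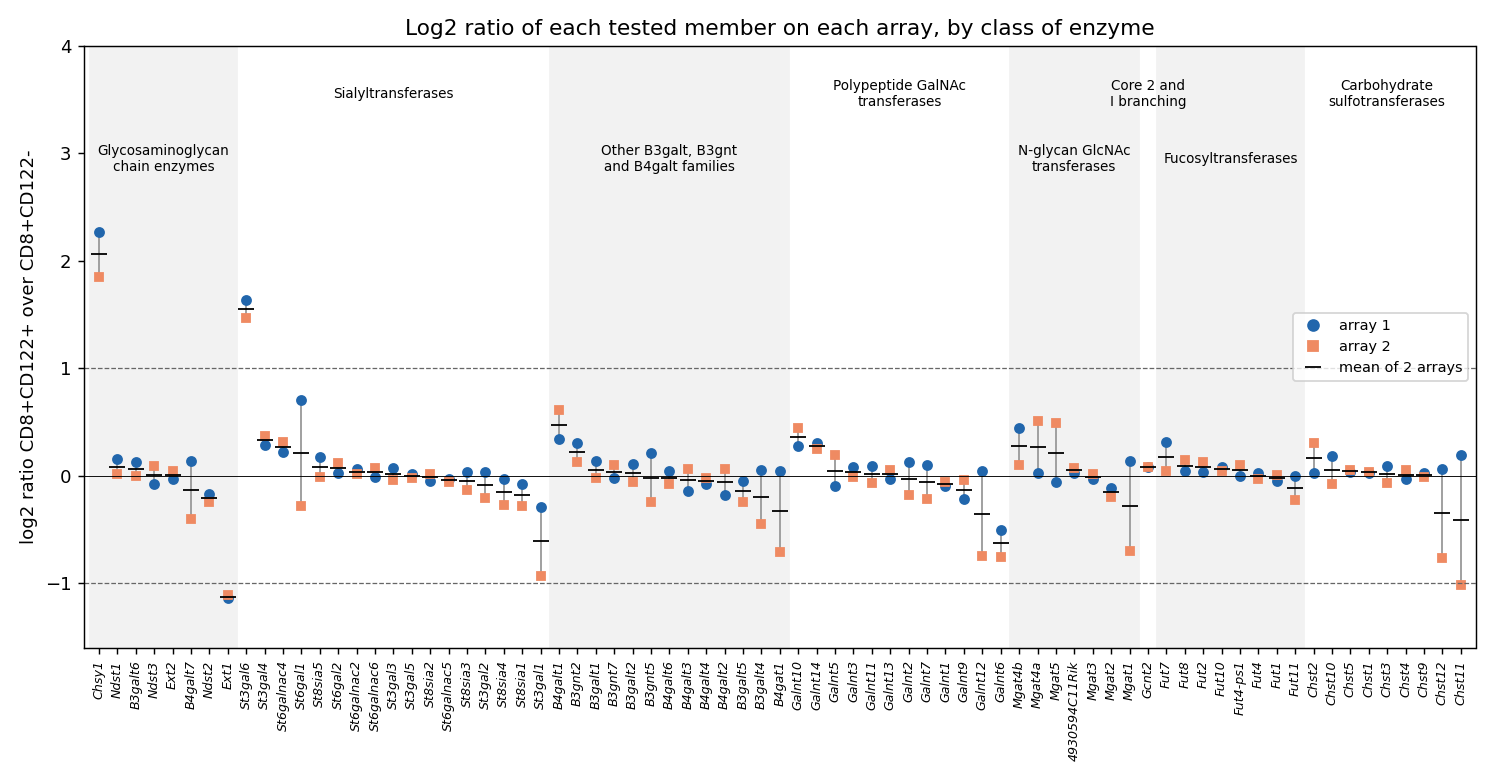
Log2 ratio of CD8+CD122+ over CD8+CD122- (y axis) of each of the 75 tested members, grouped by class of enzyme, with circles for array 1, squares for array 2 and bars for their mean. Chsy1 and St3gal6 lie above the dashed line at 2-fold on both arrays and Ext1 below the lower one, and the members lower on array 2 only, such as Galnt12 (0.04 and -0.75), show long lines between their points.

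Sialyltransferases had 17 of 19 members tested, and St3gal6 was the 1 past 2-fold. The enzyme caps lactosamine-type chains with sialic acid and takes part in making selectin ligands in mice. Its normalised level was 721.1 in CD8+CD122+ cells and 232.5 in CD8+CD122- cells on array 1, and 523.8 (CD8+CD122+) and 189.4 (CD8+CD122-) on array 2, so the populations did not overlap. The log2 ratio was 1.55 ± 0.12 (SD, n = 2 arrays), 2.93-fold higher, with a limma adjusted p of 0.312 and rank 54 from the highest. A second kept probe gave 0.61 and 0.95, in the same direction and past 1.5-fold on both arrays.

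St3gal4, a relative of St3gal6 that also caps lactosamine chains, had levels of 225.5 in CD8+CD122+ cells and 184.5 in CD8+CD122- cells on array 1, and 260.6 (CD8+CD122+) and 201.9 (CD8+CD122-) on array 2. Its log2 ratio was 0.33 ± 0.06 (SD, n = 2 arrays; limma adjusted p = 0.653), and a second probe had a mean of 0.05. St3gal1, which caps core 1 O-glycans, had levels of 288.2 in CD8+CD122+ cells and 352.7 in CD8+CD122- cells on array 1, and 254.5 (CD8+CD122+) and 484.2 (CD8+CD122-) on array 2. Its ratio was negative on both arrays, at -0.29 and -0.93, with a mean of -0.61 ± 0.45 (SD, n = 2 arrays; limma adjusted p = 0.808), and its arrays differed more than those of St3gal6. St6gal1, which caps lactosamine with sialic acid in another linkage, had levels of 827.6 in CD8+CD122+ cells and 507.1 in CD8+CD122- cells on array 1, and 618.3 (CD8+CD122+) and 749.0 (CD8+CD122-) on array 2. Its ratios of 0.71 and -0.28 had opposite signs (mean 0.21 ± 0.70, SD, n = 2 arrays; limma adjusted p = 0.942), and a second kept probe gave 0.02 and -0.14.

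St8sia1, which makes the ganglioside GD3, had ratios of -0.08 and -0.28 (limma adjusted p = 0.884), and St8sia4, a polysialyltransferase, of -0.03 and -0.27. A second kept probe of St8sia4 gave 0.10 and -0.39. St6galnac4, which acts on O-glycans that already carry a sialic acid, had 0.22 and 0.31 (limma adjusted p = 0.711). Its second kept probe gave 0.28 and -0.03, with opposite signs. The mean ratios of the other 10 tested sialyltransferases lay between -0.09 and 0.08.

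**Figure D3:**
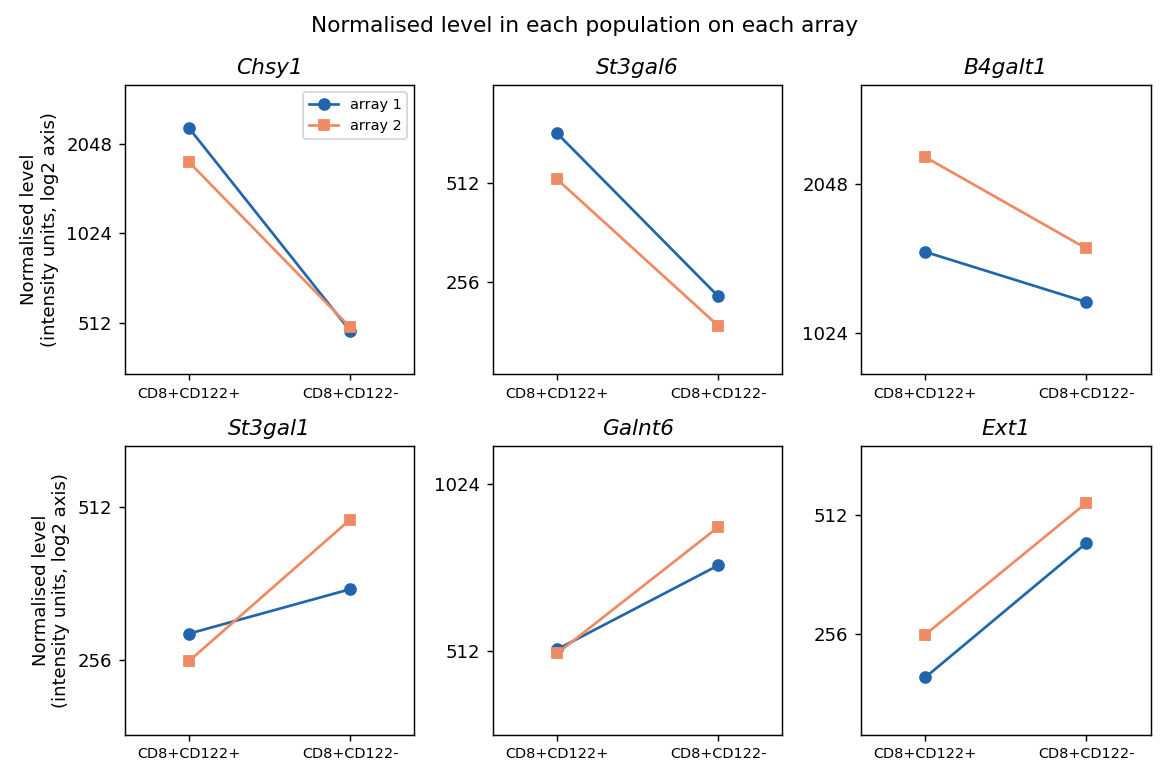
Normalised level (intensity units, log2 axis) in CD8+CD122+ and CD8+CD122- cells, with 1 line per array, for 6 members. Chsy1, St3gal6 and B4galt1 are higher and St3gal1, Galnt6 and Ext1 lower in CD8+CD122+ cells on each array. They were picked from both ends of the ranking of members. The levels of the populations overlap between arrays for B4galt1 and not for the others. The share of all genes without overlap was not counted.

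Of the polypeptide GalNAc transferases, which start mucin-type O-glycans, 12 of 14 were tested and 0 differed by 1.5-fold on both arrays. Galnt6 had levels of 516.5 in CD8+CD122+ cells and 730.3 in CD8+CD122- cells on array 1, and 508.0 (CD8+CD122+) and 855.2 (CD8+CD122-) on array 2. Its log2 ratio was -0.63 ± 0.18 (SD, n = 2 arrays; limma adjusted p = 0.585), with -0.50 on array 1 and -0.75 on array 2, and its second probe gave -0.08 and -0.50. Galnt10 had levels of 1736 in CD8+CD122+ cells and 1429 in CD8+CD122- cells on array 1, and 2038 (CD8+CD122+) and 1501 (CD8+CD122-) on array 2.

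The ratio of Galnt10 was 0.36 ± 0.11 (SD, n = 2 arrays; limma adjusted p = 0.671), and a second probe had a mean of 0.05. On each array Galnt14 was well above background in CD8+CD122+ cells and not in CD8+CD122- cells. It passed the filter only through the population where it was higher, so its limma p is no test of that direction. A second probe was well above background in neither population on either array. Levels of the kept Galnt14 probe were 77.81 in CD8+CD122+ cells and 62.93 in CD8+CD122- cells on array 1. On array 2 they were 67.55 (CD8+CD122+) and 56.82 (CD8+CD122-), at least 1.19-fold higher. This bound divides the mean of CD8+CD122+ cells by a floor for CD8+CD122- cells, namely the lowest signal well above background on the array or the probe's own signal where that is higher. Galnt1, Galnt2, Galnt3 and Galnt7 had mean ratios between -0.07 and 0.04.

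Among the 3 enzymes that branch O-glycans and I antigens, Gcnt2 had ratios of 0.08 and 0.08. Its levels were dim, at 76.64 (CD8+CD122+) and 72.46 (CD8+CD122-) on array 1, and 70.24 (CD8+CD122+) and 66.55 (CD8+CD122-) on array 2. Gcnt1, the core 2 branching enzyme, was not tested. Its 3 probes were not well above background in either population on array 1, and 1 of them was above it in both populations on array 2. Their raw mean spot signals, which include background and no dye normalisation, lay on array 1 between 66.78 and 70.21 in CD8+CD122+ cells and between 85.07 and 88.97 in CD8+CD122- cells. On array 2 they lay between 95.39 and 100.4 in CD8+CD122+ cells and between 85.21 and 97.8 in CD8+CD122- cells.

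Of the genes listed as N-glycan GlcNAc transferases, 7 of 7 were tested and 0 were past 1.5-fold on both arrays. They include 4930594C11Rik, counted here through its listing as Mgat4a, with ratios of 0.02 and 0.08. Mgat2, which starts the second branch of complex N-glycans, had levels of 163.0 in CD8+CD122+ cells and 175.9 in CD8+CD122- cells on array 1, and 135.6 (CD8+CD122+) and 155.5 (CD8+CD122-) on array 2 (ratios -0.11 and -0.20; limma adjusted p = 0.859). Mgat5, which adds the branch that galectins bind well once it is extended, had ratios of -0.06 and 0.49 (limma adjusted p = 0.921), and its second kept probe gave -0.20 and 0.37. Both Mgat5 probes thus had opposite signs on the arrays. Mgat4b and Mgat4a had means of 0.28 and 0.26, and the second kept probe of Mgat4b had a mean of 0.04. Mgat1 had 0.14 and -0.70 on the arrays, whereas its second kept probe gave -0.08 and -0.06. Mgat3 had a mean of -0.01.

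Among genes listed as fucosyltransferases, 8 of 9 were tested, the pseudogene Fut4-ps1 included. Fut7, which completes the sialyl Lewis x selectin ligand, had levels of 116.9 in CD8+CD122+ cells and 94.23 in CD8+CD122- cells on array 1, and 96.24 (CD8+CD122+) and 93.23 (CD8+CD122-) on array 2. Its ratios were 0.31 and 0.05 (limma adjusted p = 0.895). Fut4, which acts in the same pathway, had 0.02 and -0.03 (limma adjusted p = 0.994). All 8 tested members had mean ratios between -0.11 and 0.18, and Fut9 was not tested.

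Of the other genes listed under B3galt, B3gnt and B4galt names, many of which encode enzymes of lactosamine chains, 13 of 17 were tested. B4galt1, the main galactosyltransferase of N-glycans, had levels of 1495 in CD8+CD122+ cells and 1183 in CD8+CD122- cells on array 1, and 2327 (CD8+CD122+) and 1520 (CD8+CD122-) on array 2. Its log2 ratio was 0.48 ± 0.20 (SD, n = 2 arrays), 1.39-fold higher (limma adjusted p = 0.677), and the population levels overlapped between arrays but not within them. Its other probes had means of 0.44 and 0.04. B3gnt2, which extends polylactosamine, had ratios of 0.30 and 0.13 (limma adjusted p = 0.836), and its second kept probe gave -0.05 and 0.12. The remaining 11 tested members had means between -0.33 and 0.06, the lowest in B4gat1 (0.05 and -0.71), which the files list as B3gnt6 and which encodes a glucuronyltransferase of O-mannosyl glycans.

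**Figure D4:**
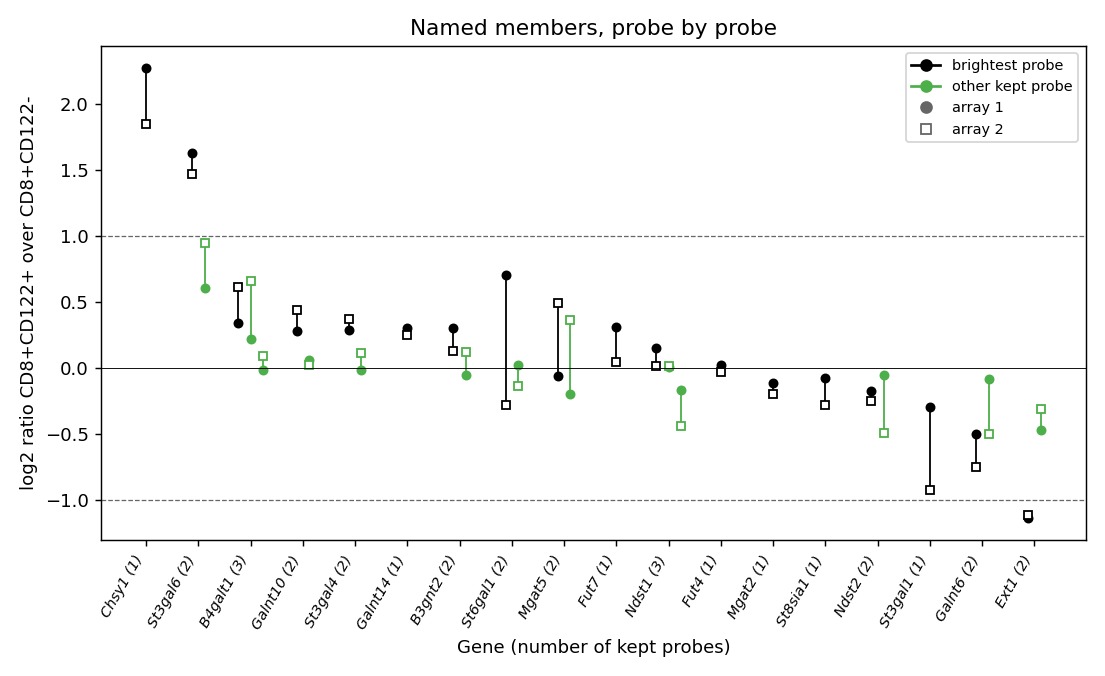
Log2 ratio of CD8+CD122+ over CD8+CD122- (y axis) of every kept probe of 18 named members, with the brightest probe of a gene in black, its other probes in green, circles for array 1 and squares for array 2. St3gal6 has a second probe on the same side of 0 (0.61 and 0.95), and the second Ext1 probe (-0.47 and -0.31) lies closer to 0 than the first.

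Of the carbohydrate sulfotransferases, 9 of 11 were tested and 0 were past 1.5-fold on both arrays. Chst11, which sulfates chondroitin, had levels of 115.7 in CD8+CD122+ cells and 101.5 in CD8+CD122- cells on array 1, and 107.1 (CD8+CD122+) and 216.7 (CD8+CD122-) on array 2. Its ratios of 0.19 and -1.02 were 1 log2 unit or more apart, the 1 member of which this held. The share of all genes with such a gap was not counted. A pair of probes listed as 1110020P09Rik, which the reference table assigns to Chst11, gave 0.78 and 0.47, and 0.06 and 0.05. Chst2, a sulfotransferase of GlcNAc that contributes to L-selectin ligands, had 0.03 and 0.31. Its levels were dim, at 73.13 (CD8+CD122+) and 71.7 (CD8+CD122-) on array 1, and 80.59 (CD8+CD122+) and 65.15 (CD8+CD122-) on array 2.

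Several members were lower in CD8+CD122+ cells on array 2 alone. Galnt12, Chst12, B4gat1, Mgat1 and Chst11, picked after their values were seen, had ratios of -0.5 or below on array 2 and within 0.25 of 0 on array 1. That makes 5 of 75 members (6.67%), against 3.53% of all genes tested. None (0 of 75) showed the reverse, and Mgat4a (0.02 and 0.51) was the 1 member higher on array 2 only. The shares of all genes with these last patterns were not counted. Over all genes tested, the log2 ratios spread more on array 2 (SD 0.33) than on array 1 (SD 0.22). The shifts of the members named here rest on 1 array. A second kept probe gave -0.02 and -0.52 for Chst12, but -0.08 and -0.06 for Mgat1.

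Among 31 members with several kept probes under the names of the rule, 0 had probes whose mean ratios differed by 1 or more, and the median spread was 0.08. With the probes that the reference table assigns to a member under another name, 1 of 33 did, Chst11 (1.04). Under the names of the rule the widest were St3gal6 (0.77) and Ext1 (0.73). Of the 110 kept member probes, 4 were at least 1.5-fold apart between the populations in one direction on both arrays, where 0.926% of all 30794 kept probes were. These were the Chsy1 probe, both St3gal6 probes and 1 of the Ext1 probes. Within 0.25 of 0 on both arrays were 73 of the 110 kept member probes, a smaller share than the 73.3% of all kept probes.

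Genes of neighbouring steps were read from 7 lists, and 2 of their genes passed 1.5-fold on both arrays, none of them an enzyme. Of all genes tested, 0.742% were higher and 0.369% lower by that size on both arrays. None of 22 tested genes that start O-glycans or build their cores passed it, nor any of 40 for N-glycan precursors and trimming, 41 for nucleotide sugars and their carriers, 26 other glycosaminoglycan enzymes or 26 enzymes that remove sugars. Of 14 glycoproteins that carry O-glycans or selectin ligands, Cd44, an adhesion receptor for the glycosaminoglycan hyaluronan, was past it. Its levels were 705.5 in CD8+CD122+ cells and 151.0 in CD8+CD122- cells on array 1, and 1281 (CD8+CD122+) and 204.2 (CD8+CD122-) on array 2, and the ratio was 2.44 ± 0.30 (SD, n = 2 arrays; limma adjusted p = 0.335). Its other kept probes disagreed, with ratios of 2.08 and 2.19 on one and -0.03 and 0.09 on the other. Of 16 glycan-binding receptors, Lgals1, which encodes galectin-1, was past it. Its levels were 2249 in CD8+CD122+ cells and 772.4 in CD8+CD122- cells on array 1, and 1241 (CD8+CD122+) and 429.8 (CD8+CD122-) on array 2, and its ratio was 1.54 ± 0.01 (SD, n = 2 arrays; limma adjusted p = 0.312). The median ratios of the 7 lists lay between -0.08 and 0.04, beside 0.007 over all genes.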

How the data were processed

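The authors' scans were read by Agilent Feature Extraction, whose version was A.7.5.1 (array 1) or 8.1.1.1 (array 2), per the file headers. Per the file headers, each spot has linear intensity values for signal and local background. Per the file headers, it also has the log10 of Cy5 divided by Cy3. The deposited value table holds the same log10 ratios as CD8+CD122- over CD8+CD122+ (100% of values equal within 1e-05, with the sign turned on array 1); each column has a median of 0, and no source used here says whether it was centred.

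Probes were named through a RefSeq table of GRCm38.p6 (32013 of 41174). Mean spot signals were corrected by normexp with an offset of 50, which shrinks ratios of dim probes, and normalised by loess in limma 3.58.1 (R 4.3.3). Control and outlier spots were left out. A probe was kept if 1 population was well above background on both arrays (30794 probes), and the brightest kept probe stood for its gene. The log2 ratios of 21964 genes entered limma's lmFit and eBayes (two-sided, 1 residual degree of freedom). Adjusted p-values follow Benjamini and Hochberg across these genes. Levels are per channel after loess and Aquantile. Fold calls are rules of size with no p. The steps were tested on simulated data. Only 2 arrays limit the precision.

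Named members were those past 1.5-fold on both arrays, then the next highest and lowest with 1 sign on both arrays up to 6 at each end, plus 12 preset members; the members and lists were chosen with earlier results of these data known. Genes outside that rule are described in passing and were picked after their values were seen. Alternatives were the processed signals, median centring, an offset of 16, filters, the probe rule, outlier spots, the variance model and single arrays.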

Additional observations from a re-analysis of the deposited data

How the results depend on the processing

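The counts of members at least 2-fold and 1.5-fold higher, and at least 1.5-fold lower, stayed within 1.5 times of the reported ones under all alternatives to the scaling, filters and probes that were run. The count at least 2-fold lower was 0 with median centring and 0 with the mean of all kept probes, where Ext1 was the gene lost. With a single array, 1 to 2 members were at least 2-fold lower (0.178% of all genes on array 1 and 0.82% on array 2) and 1 to 8 at least 1.5-fold lower (0.856% and 3.67%). At least 2-fold higher were 2 to 2 (0.442% and 1.17%) and at least 1.5-fold higher 3 to 3 (1.13% and 3.3%). The median of the members ran from -0.0066 to 0.0383. The processed signals gave 3 members at least 2-fold higher, the third being Galnt14, whose CD8+CD122- signal was not well above background, and 3 genes of the neighbouring lists past 1.5-fold, against 2. Of the named members, Fut4, at -0.0028, turned to 0.0227 with median centring and Ndst1, at 0.0844, to -0.0685 with the mean of all kept probes. Single arrays turned further signs: St6gal1, at 0.2149, was -0.2767 on array 2. On array 1, Mgat5, at 0.2144, was -0.0619 and Fut4 was 0.0219. limma called 0 members in every setting run, also with an intensity trend or robust; an offset of 16 called 6 genes, 0 of them members, with a smallest member adjusted p of 0.19. Members under present RefSeq symbols (88 tested, chosen after seeing the data) gave the same counts by size. The fit is itself paired, because it uses the ratio of both populations within each array. No further pairing was possible, because the 1 group of ratios has no numbers left to pair. limma has no value for a single array. The number of arrays and the dim signal of many members, 14 of 89 not tested, limit what could be seen.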

Other observations

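Enzymes of the same families that both files list under other names were not members and were read separately. They comprise 15 genes, of which 14 had a kept probe, and the mean log2 ratios of their 19 kept probes lay between -0.15 and 0.10. St8sia6, a sialyltransferase written st8sia6 in the file of array 2 and so missed by the rule's letter case, had -0.19 and -0.21 on arrays 1 and 2. The highest of the 15 was Galnt16, a polypeptide GalNAc transferase, on 1 of its 3 kept probes with 0.08 and 0.12. Galnt10 had a further probe under a clone name, with 0.27 and 0.30.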
